A study of Mus musculus with 34 samples.

Results

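This account covers 34 genes that encode coregulators of nuclear receptors and enzymes that modify chromatin, of 55341 gene names counted by RNA-seq in a mouse mammary adenocarcinoma cell system built to study the glucocorticoid receptor (GR). The 34 genes came from a list of names, and all were found in each of the 34 libraries. By role they were 4 coactivators (Ncoa1, Ncoa2, Ncoa3 and Ncoa6), 2 corepressors (Nrip1 and Ncor1), 3 acetyltransferases (Ep300, Crebbp and Kat2b), 4 Mediator subunits (Med1, Med12, Med13 and Med14) and 9 subunits of the SWI/SNF remodelers (Smarca2, Smarca4, Smarcb1, Smarcc1, Smarcd1, Smarcd2, Smarce1, Arid1a and Arid1b). The others were 6 methyltransferases (Kmt2a, Kmt2c, Kmt2d, Carm1, Ehmt1 and Ehmt2), 3 deacetylases (Hdac1, Hdac2 and Hdac3), 2 remodelers of the CHD family (Chd4 and Chd9) and Polr2a, the largest subunit of RNA polymerase II.

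GR is a hormone-activated transcription factor that holds little enzymatic activity of its own. Agonist-bound GR recruits p160 coactivators, which bring in acetyltransferases and methyltransferases, while SWI/SNF complexes open nucleosomes at its sites and Mediator connects enhancer-bound factors to RNA polymerase II. Corepressors such as NCoR work with histone deacetylases in the opposite direction. Dexamethasone (Dex) is a synthetic glucocorticoid that acts as a full agonist of GR.

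All lines were derived from 3617 cells, a mouse mammary adenocarcinoma line, with the endogenous GR knocked out and a GFP-tagged mouse GR stably put back. They were kept in 10% charcoal-stripped serum with 5 ug/ml tetracycline, given 100 nM Dex or its ethanol vehicle (EtOH) for 2 h, and mixed with a 5% spike-in of Drosophila S2 cells. The receptor forms were Y551A, Y551A-Dim, D647V and D647V-Tetra, each against wild-type receptor (WT), with the labels not saying what Dim and Tetra stand for. The libraries fell into 2 sets: Y551A, Y551A-Dim and WT with 3 Dex and 3 EtOH libraries each in set 1, and D647V and D647V-Tetra with 3 and 3 and WT with 2 and 2 in set 2. Each receptor form was 1 line, so that the receptor form and any other difference between the lines cannot be told apart. Whether the replicates were separate cultures is not stated in the labels; p-values then measure only the spread between these libraries, which may be technical.

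Set 1 held 18 libraries of 44998213 to 70124595 counted reads and set 2 held 16 libraries of 60277930 to 79776573. The 34 genes together took 0.334% to 0.386% of the reads in set 1 and 0.311% to 0.410% in set 2. The lowest count of any of them in any library was 1083 reads, and all 34 passed the filter on low counts in both sets. The epithelial marker Epcam and the milk protein gene Wap were at 0 in all 34 libraries and Cdh1 reached at most 0.0682 CPM (counts relative to library size after TMM scaling) and Krt14, a basal keratin, 2.46 to 19.7 CPM, while Vim lay between 3905 and 5355, Col1a2 between 1628 and 2741 and Pdgfrb between 106 and 202 CPM. Of the other mesenchymal markers, Col1a1 lay between 0.927 and 2.44 CPM and Thy1 was at 0 in 33 libraries. Dex replicate 1 of Y551A and EtOH replicates 1 and 3 of D647V-Tetra stood apart in genes with long transcripts. Per1, a direct GR target, rose with Dex in every line, with a log2 fold change of 1.22 in Y551A-Dim and 2.74 to 3.09 in the other lines. Nr3c1, which encodes GR, stood higher than in WT in EtOH libraries of Y551A (log2 0.30 ± 0.031, SE) and Y551A-Dim (0.15 ± 0.031) and lower in D647V (-0.24 ± 0.045) and D647V-Tetra (-0.37 ± 0.045).

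Levels of the 34 genes were compared as CPM per kb of exonic length in the 3 EtOH libraries of WT in set 1. Chd4, the ATPase of the NuRD complex, stood highest at 60.4 ± 1.72 CPM per kb (mean ± SD, n = 3 here and for the next values). Ehmt2, a histone H3 lysine methyltransferase that also serves GR as a coactivator, followed at 34.2 ± 0.654. Hdac2 (28.1 ± 0.527) and Smarca4 (27.8 ± 0.650), the SWI/SNF ATPase also called BRG1, did not differ beyond their SDs. At the low end were Kmt2d (2.48 ± 0.118) and Chd9 (2.46 ± 0.110), which also lay within their SDs of each other. The partner ATPase Smarca2 (BRM) stood at 6.47 CPM per kb, below Smarca4, and the p160 coactivators Ncoa3, Ncoa1 and Ncoa2 stood at 9.17, 6.81 and 6.09. Crebbp (8.41) was above its close relative Ep300 (3.27), and the corepressor Ncor1 (16.9) was above Nrip1 (3.11). Because exonic length was summed over all annotated transcripts of a gene, a gene expressed from short isoforms is understated on this scale. Exonic length was 15.6 kb for Ncoa2, 8.58 kb for Ncoa1, 7.90 kb for Ncoa3 and 4.47 kb for Hdac2. Their transcripts with the longest coding sequence measured 4.90, 4.76, 7.53 and 2.01 kb. The order of the genes, also among the p160 coactivators, therefore depends on the length used.

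**Figure D1:**
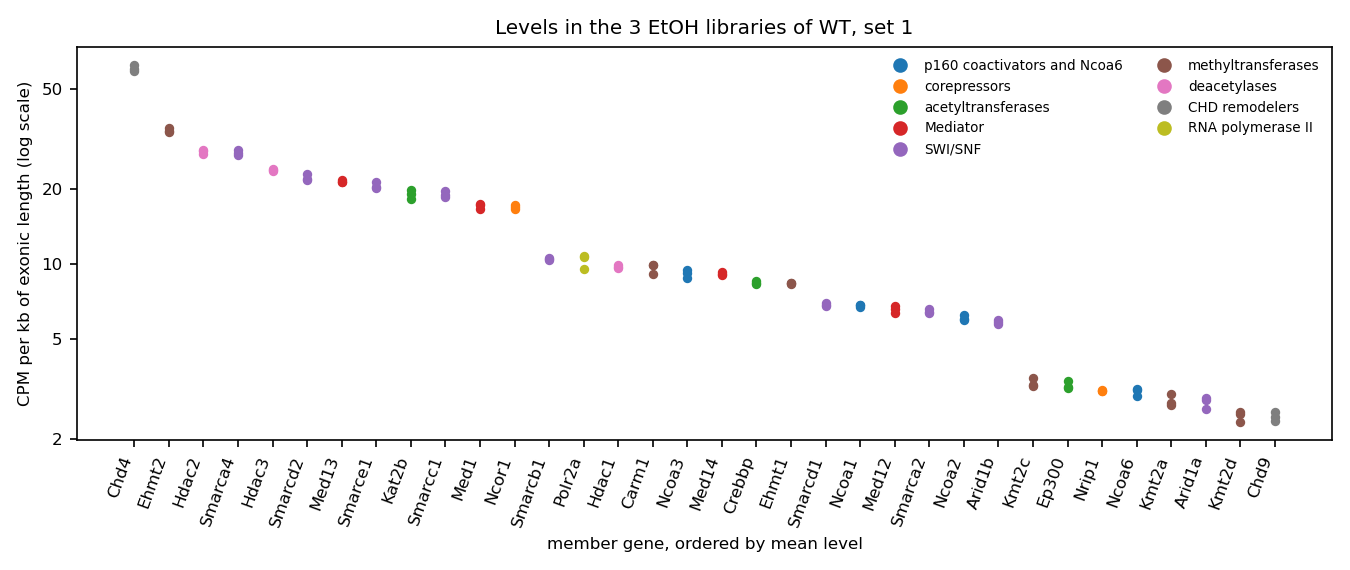
CPM per kb of exonic length (log axis) of the 34 genes in each of the 3 EtOH libraries of WT in set 1, 1 point per library, ordered by mean level and coloured by role. On this scale Chd4 stands alone at the top (60.4) and Kmt2d (2.48) and Chd9 (2.46) share the low end.

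The response of wild-type receptor cells to Dex asks whether 2 h of hormone alters transcripts of the machinery that GR uses. None of the 34 genes changed in WT of set 1, where edgeR's quasi-likelihood test called 3.4% of 16140 genes at a Benjamini-Hochberg adjusted p below 0.05 (the rule for every call here); 4 of the 34 had an unadjusted p below 0.05. Nrip1, a corepressor that binds agonist-bound receptors (chromosome 16, 76287400 to 76373827, minus strand, mm10), came nearest. It had 39.7, 40.3 and 40.2 CPM with Dex, against 35.5, 35.8 and 35.5 CPM with EtOH. The 3 Dex libraries all lay above the 3 EtOH libraries, the log2 fold change was 0.17 ± 0.051 (SE), and edgeR's adjusted p was 0.0659. The call depended on the fit: DESeq2 gave Nrip1 an adjusted p of 0.0281, and it was the only one of the 34 that DESeq2 called. In bulk RNA, fewer cells of a kind and less RNA per cell cannot be told apart, here and in every comparison that follows.

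In WT of set 2, again 0 of the 34 were called, against 1.72% of 17535 genes, with an unadjusted p below 0.05 for 4, and DESeq2 called 0. An edgeR fit with no filter on low counts called 8 lower there. Nrip1 did not show the difference seen in set 1: it had 42.0 and 41.3 CPM with Dex, against 38.0 and 44.9 CPM with EtOH, which overlap (log2 0.01 ± 0.086). Across both sets of WT its log2 fold change was 0.09 ± 0.044 and not called.

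A fit over the 10 WT libraries of both sets had a mean per set and treatment and tested the mean of the Dex responses of the 2 sets. Both sets thus counted equally, though set 2 held fewer libraries. It found 0 of the 34 higher and 4 lower with Dex, against 2.15% of 16540 genes lower and 5.1% changed in either direction. The 4 were Kmt2d (log2 -0.24 ± 0.055), Arid1a (-0.23 ± 0.049), Polr2a (-0.21 ± 0.054) and Kmt2c (-0.19 ± 0.047). Over 8 kb of transcript length, the class of Kmt2d, Arid1a and Kmt2c, 8.29% of other coding genes were lower in this fit. From 6 to 8 kb, the class of Polr2a, it was 4.78%. Spearman's rho of the response with transcript length was -0.71 over the 34 and -0.11 over other coding genes. Kmt2c and Kmt2d place monomethyl marks on histone H3 at enhancers, and Arid1a is the DNA-binding subunit of the canonical BAF form of SWI/SNF. Kmt2d had 88.5 and 76.4 CPM with Dex in set 2, against 102 and 116 CPM with EtOH, and 45.4, 51.4 and 43.0 CPM with Dex in set 1, against 46.7, 50.3 and 51.2 CPM with EtOH. The groups were separate in set 2 and overlapped in set 1, where Kmt2d was not called. Arid1a, Polr2a and Kmt2c were likewise separate in set 2 and overlapped in set 1, without a call there. The log2 fold changes of the other genes in that fit were small: Ep300 -0.17, Crebbp -0.11, Ncoa1 -0.05, Ncoa2 -0.07, Ncoa3 -0.07, Smarca4 -0.03, Med1 -0.02 and Kat2b 0.02, none of them called. The count of 4 became 10 without EtOH replicate 1 of set 2, 7 without Dex replicate 1 of set 2, and 2 without any of 4 other single libraries (Dex replicates 1 and 3 and EtOH replicate 3 of set 1, and Dex replicate 2 of set 2).

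Set by set, the same genes gave these log2 fold changes. Among coactivators, Ncoa1 had -0.08 in set 1 and -0.03 in set 2, Ncoa2 -0.01 and -0.15, and Ncoa3 -0.04 and -0.10. Of the acetyltransferases, Ep300 had -0.08 in set 1 and -0.27 in set 2, Crebbp 0.03 and -0.26, and Kat2b 0.00 and 0.03. Smarca4 had -0.05 in set 1 and -0.01 in set 2, Med1 -0.04 and -0.01, and Polr2a -0.07 and -0.35. Over all 34 genes the lowest values in set 2 were those of Kmt2d (-0.40), Arid1a (-0.37) and Polr2a (-0.35), none of them called. The approximate 95% intervals of all 34 genes lay within -0.32 and 0.27 in set 1 and within -0.81 and 0.45 in set 2.

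Dex also left the 34 genes uncalled in Y551A (0 of 34 against 1.84% of all genes; 4 at an unadjusted p below 0.05; 0 by DESeq2) and in Y551A-Dim (0 of 34 against 1.09%; 0 at an unadjusted p below 0.05; 0 by DESeq2). In Y551A the log2 fold changes ran from -0.04 for Hdac3 to 0.13 for Carm1, with 95% intervals within -0.19 and 0.28. In Y551A-Dim they ran from -0.12 for Polr2a to 0.06 for Smarcd1, with intervals within -0.28 and 0.20. Nrip1 had 45.5, 40.2 and 42.0 CPM with Dex in Y551A, against 42.5, 43.6 and 41.5 CPM with EtOH, and in Y551A-Dim 35.2, 39.3 and 36.1 CPM with Dex, against 38.7, 35.9 and 37.4 CPM with EtOH. Both pairs of groups overlapped. The difference of its Dex response from that of WT was -0.17 in Y551A and -0.19 in Y551A-Dim, neither called. No difference of Dex response within set 1 was called for any of the 34: 0 of 34 for Y551A minus WT (0.18% of all genes called, 5 of the 34 at an unadjusted p below 0.05), 0 for Y551A-Dim minus WT (1.47%, 1) and 0 for Y551A-Dim minus Y551A (0.558%, 1), and DESeq2 called 0 in each.

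The lines of set 1 differed from each other before hormone was added. Cell type markers are given beside this: the 4 basal markers (Krt14, Acta2, Trp63 and Krt5) summed to 19.1 to 20.5 CPM in EtOH libraries of Y551A, 8.16 to 9.32 in Y551A-Dim and 5.59 to 5.87 in WT, with Krt5 at 0 in 28 of the 34 libraries of both sets. The 3 endothelial markers (Cdh5, Pecam1 and Kdr) summed to 2.95 to 3.73 CPM in Y551A, 2.53 to 2.83 in Y551A-Dim and 7.36 to 7.83 in WT, with Kdr at 0 in 26 libraries. Over all libraries of both sets, Pecam1 reached at most 0.316 and Kdr 0.0588 CPM, so this sum is mostly Cdh5. Of the basal markers besides Krt14, Trp63 reached at most 2.09 and Acta2 0.775 CPM. The part of these markers in the results was not tested. In EtOH libraries, 18 of the 34 genes differed between Y551A and WT, 10 higher and 8 lower, in a comparison where 42.5% of all genes were called (18.9% higher and 23.5% lower). At 52.9% of the 34 the count is near the background and is not a result about the genes as a group; the genes that stood furthest out are described by name. The median log2 fold change was 0.06 over the 34 genes and 0.00 over all genes tested.

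Smarca2, 1 of the alternative ATPases of SWI/SNF (chromosome 19, 26605050 to 26778322, plus strand), was furthest up. It had 129, 134 and 132 CPM in Y551A EtOH libraries, against 91.9, 91.2 and 93.9 CPM in WT EtOH libraries, a log2 fold change of 0.52 ± 0.042, or 1.43-fold. No value of Y551A came near those of WT. Kat2b, the acetyltransferase PCAF, had 122, 123 and 121 CPM in Y551A, against 92.3, 96.5 and 88.5 CPM in WT (log2 0.40 ± 0.042), again with no overlap. Chd9 (0.38 ± 0.052), Kmt2c (0.34 ± 0.066) and Kmt2d (0.30 ± 0.121) were next. On the lower side were Carm1, an arginine methyltransferase that p160 coactivators recruit, Smarcd1, a SWI/SNF subunit that can contact GR, Hdac2, Ehmt1 and Ehmt2. Carm1 had 36.1, 35.5 and 36.7 CPM in Y551A, against 48.0, 44.4 and 47.9 CPM in WT (log2 -0.37 ± 0.058), so the highest Y551A library was below the lowest WT library. Hdac2 had 105, 108 and 107 CPM in Y551A, against 128, 126 and 123 CPM in WT (log2 -0.24 ± 0.036), also without overlap. The log2 fold changes of Smarcd1, Ehmt1 and Ehmt2 were -0.25 ± 0.054, -0.20 ± 0.043 and -0.19 ± 0.044.

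By role, the higher calls in Y551A fell on 2 of 4 coactivators (Ncoa2 and Ncoa6), 1 of 2 corepressors (Nrip1), 1 of 3 acetyltransferases, 1 of 9 SWI/SNF subunits, 3 of 6 methyltransferases (the 3 KMT2 genes), 1 of 3 deacetylases (Hdac1) and 1 of 2 CHD remodelers. The lower calls fell on 3 of 9 SWI/SNF subunits (Smarcd1, Smarcb1 and Smarcc1), 3 of 6 methyltransferases (Carm1, Ehmt1 and Ehmt2) and 2 of 3 deacetylases (Hdac2 and Hdac3). None of the 4 Mediator subunits and not Polr2a was called. Over all genes 18.9% were higher and 23.5% lower, so these small counts are a description and not a result about any role.

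Y551A-Dim differed from WT at 14 of the 34 genes (41.2%) in EtOH libraries, 7 higher and 7 lower, where 23.3% of all genes were called (10% higher and 13.3% lower); the count was 7 without WT EtOH replicate 2, 8 without WT EtOH replicate 1 or Y551A-Dim EtOH replicate 1, and 9 with an offset for exonic length. The higher genes with the most change were Kmt2d (log2 0.36 ± 0.120), Polr2a (0.31 ± 0.083), Ncoa2 (0.30 ± 0.055), Arid1a (0.29 ± 0.076) and Chd9 (0.28 ± 0.052). Ncoa2, the p160 coactivator also called GRIP1 or TIF2, had 121, 118 and 113 CPM in Y551A-Dim, against 93.8, 94.2 and 97.7 CPM in WT, and the groups were separate. The lower ones with the most change were Smarcd1 (-0.34 ± 0.055), Carm1 (-0.24 ± 0.058), Ehmt1 (-0.17 ± 0.043), Hdac2 (-0.13 ± 0.036) and Ehmt2 (-0.12 ± 0.044). Smarcd1 had 22.2, 22.7 and 20.8 CPM in Y551A-Dim, against 28.1, 27.3 and 27.5 CPM in WT, which do not overlap. Carm1 was intermediate in this line, with 40.2, 40.3 and 38.0 CPM. Here too the fold changes went with transcript length, with a Spearman's rho of 0.58 over the 34 and 0.09 over other coding genes. Of the other coding genes over 8 kb, 24.9% were higher and 8.53% lower, against 8.07% and 19.2% between 2 and 4 kb.

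Between the mutant lines, Y551A-Dim against Y551A, 7 of the 34 were called in EtOH libraries, 3 higher and 4 lower, against 29% of all genes (14.8% higher and 14.2% lower), a share of the 34 below the background. Smarca2 had 95.5, 100.4 and 91.4 CPM in Y551A-Dim, against the 129 to 134 CPM of Y551A (log2 -0.46 ± 0.042). Kat2b had 94.3, 98.9 and 93.4 CPM in Y551A-Dim, against 121 to 123 CPM in Y551A (-0.35 ± 0.042). Both genes thus stood in Y551A-Dim near their WT level, and neither was called between Y551A-Dim and WT in EtOH libraries. Nrip1 (-0.19 ± 0.050) and Med13 (-0.13 ± 0.043), a subunit of the Mediator kinase module, were also lower, and Arid1a (0.25 ± 0.076), Smarcc1 (0.12 ± 0.039) and Hdac2 (0.11 ± 0.036) were higher. The count of 7 was 4 without Y551A EtOH replicate 1 and 11 with only these groups in the fit.

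The Dex libraries are separate from the EtOH libraries and repeat the comparison between lines. With Dex, 23 of the 34 differed between Y551A and WT (18 higher and 5 lower, against 19% and 22.1% of all genes, 41.1% in all), 12 between Y551A-Dim and WT (7 higher and 5 lower, against 12% and 14%, 26% in all) and 9 between Y551A-Dim and Y551A (1 higher and 8 lower, against 12.8% and 12.7%, 25.5% in all). For Y551A against WT, 14 genes were called in both kinds of library, all 14 in the same direction, which is 14 of the 18 called with EtOH and 14 of the 23 called with Dex. Over all genes, 79.2% of those called with EtOH were also called with Dex, 99.8% of these in the same direction. For Y551A-Dim against WT it was 10 of the 14 called with EtOH, all 10 in the same direction (65.3% and 98.5% over all genes). For Y551A-Dim against Y551A it was 5 of the 7 called with EtOH (65.6% over all genes), Smarca2, Kat2b, Nrip1, Med13 and Hdac2, all 5 in the same direction; of the 7, 6 kept their sign with Dex. Smarca2 had 141, 137 and 137 CPM in Y551A Dex libraries, against 84.1, 89.2 and 82.9 CPM in WT Dex libraries (log2 0.69). Carm1 had a log2 difference of -0.29 ± 0.059 and Hdac2 of -0.28 ± 0.037 between Y551A and WT with Dex.

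**Figure D2:**
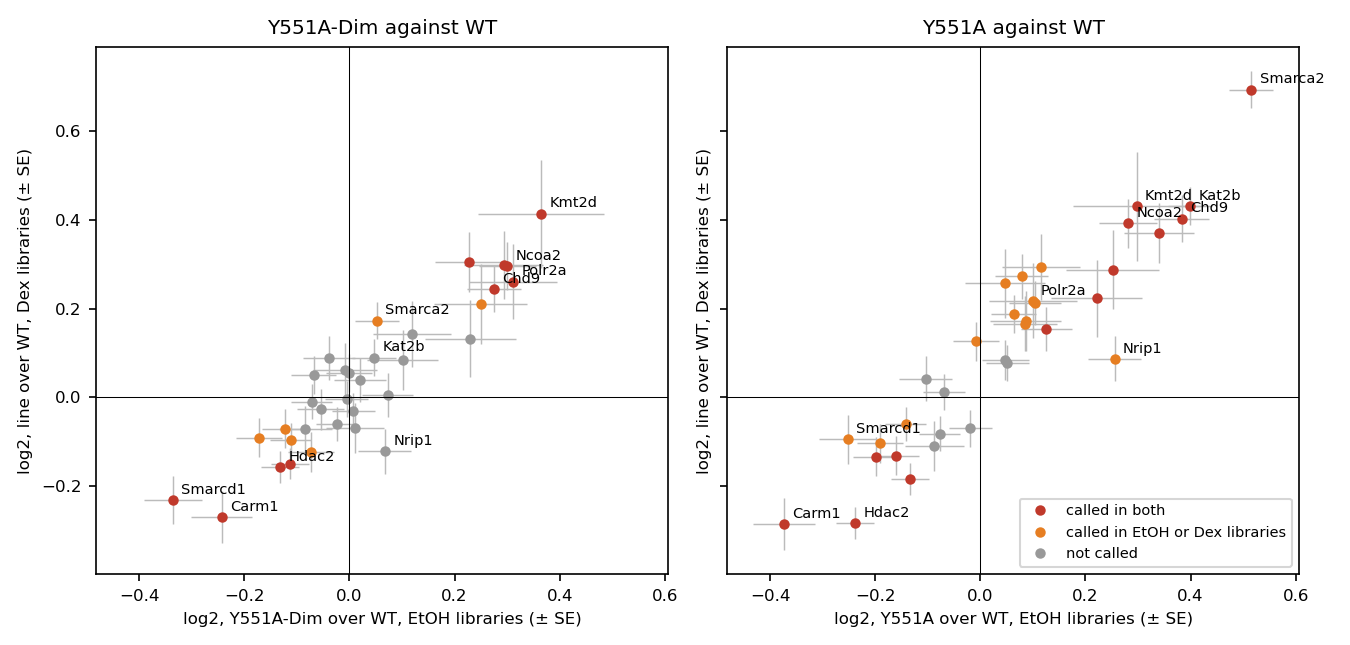
Log2 fold change between lines in EtOH libraries (horizontal axis) and in Dex libraries (vertical axis), 1 point per gene for the 34 genes, Y551A-Dim against WT on the left and Y551A against WT on the right. Smarca2 and Kat2b stand at the upper right and Carm1 and Hdac2 at the lower left for Y551A, and Kmt2d and Smarcd1 at the ends for Y551A-Dim.

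Dex replicate 1 of Y551A carries part of this. It had 85.3 CPM of Kmt2d, against 52.2 and 50.5 CPM in the other Y551A Dex libraries, and 69.0 CPM of Kmt2a, against 51.5 and 47.7. The median over coding genes with transcripts over 8 kb minus that over genes up to 2 kb, taken as log2 CPM relative to WT EtOH libraries, was 0.31 in that library, 0.18 and 0.16 in the other Y551A Dex libraries and at most 0.05 in WT of set 1. Without it, 16 of the 34 differed between Y551A and WT with Dex, 11 higher and 5 lower. The count of 9 for Y551A-Dim against Y551A ranged between 5 and 14 when single libraries were left out.

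**Figure D3:**
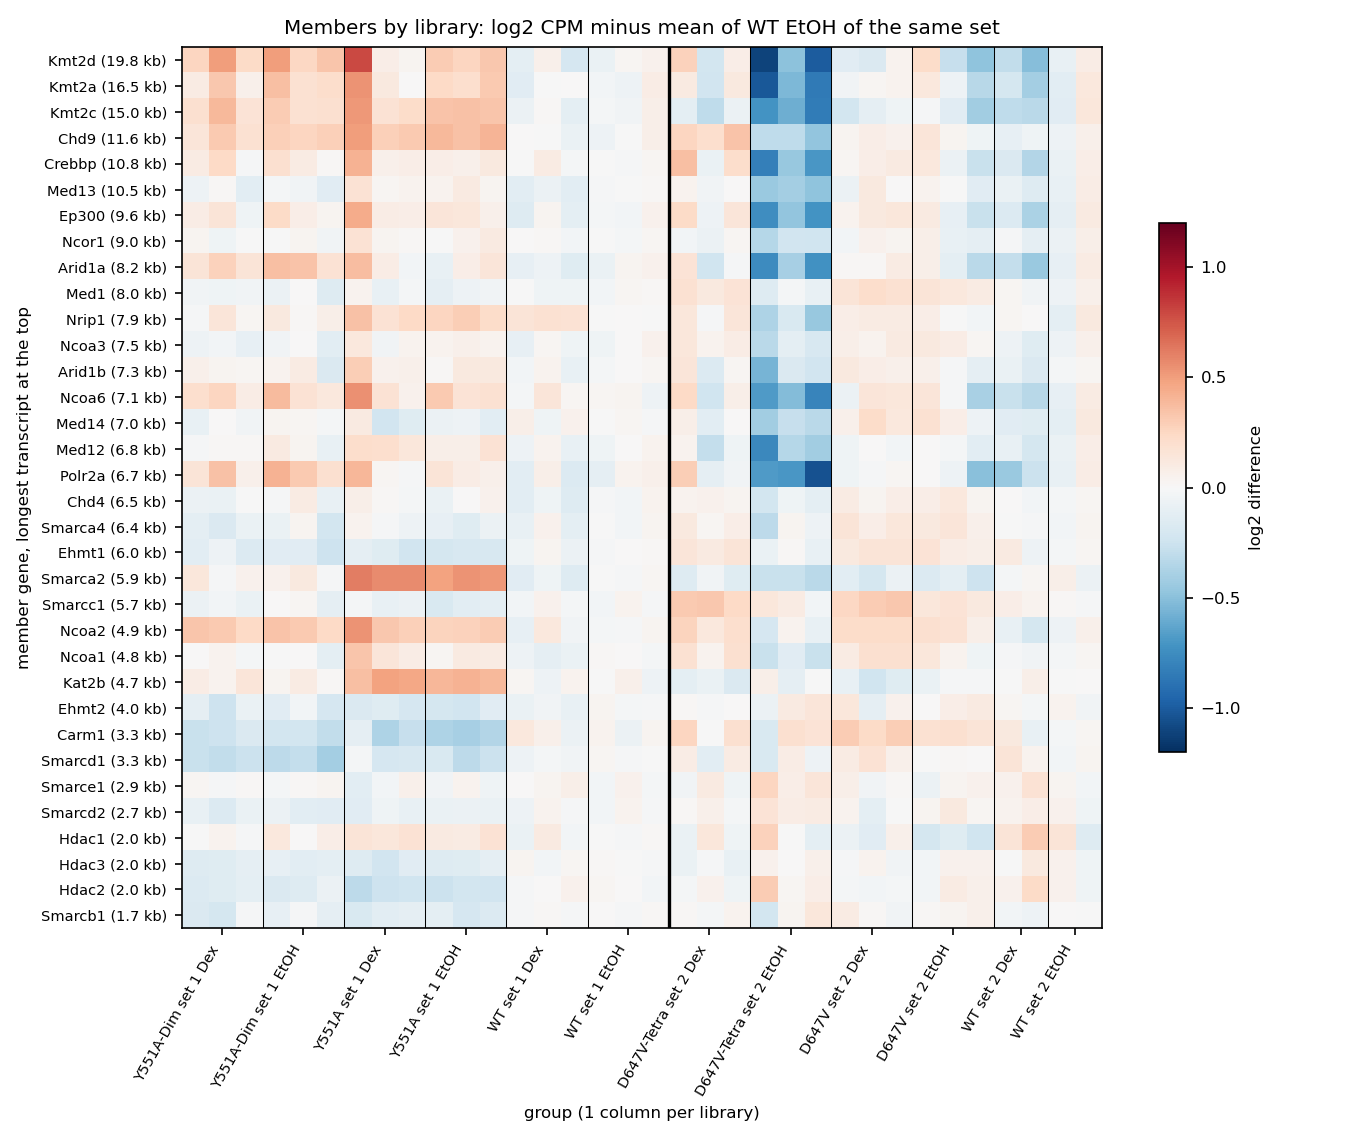
Log2 CPM of each of the 34 genes in each library minus the mean of the WT EtOH libraries of the same set, genes ordered by transcript length with the longest on top and libraries grouped by line and treatment, Dex left of EtOH. Red is higher and blue lower; the 3 EtOH libraries of D647V-Tetra form a blue block over the long genes, Smarca2 and Kat2b are red across Y551A, and Dex replicate 1 of Y551A is red over the long genes.

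In D647V, studied in set 2, no gene of the 34 was called against WT before hormone or with Dex against EtOH. In EtOH libraries 0 of the 34 genes were called between D647V and WT, against 7.36% of all genes, with an unadjusted p below 0.05 for 4, and DESeq2 called 1. The gene nearest to a call was Smarca2, with 106, 110.3 and 100.3 CPM in D647V, against 125 and 114 CPM in WT (log2 -0.18 ± 0.058, edgeR's adjusted p 0.0776). The 95% intervals of the 34 genes lay within -0.52 and 0.36. Dex called 0 of 34 in D647V, against 0.941% of all genes, with an unadjusted p below 0.05 for 2, and DESeq2 called 0. The log2 fold changes ran from -0.12 for Kat2b to 0.18 for Ep300. The difference of the Dex response between D647V and WT was called for 0 of 34 as well (0.188% of all genes), with an unadjusted p below 0.05 for 7 and no call by DESeq2; the fit with no filter on low counts called 8. Between the Dex libraries of D647V and WT, 6 of the 34 were called (9.42% of all genes; 4.1% higher and 5.32% lower): Ncoa2 (0.37), Ep300 (0.37), Med14 (0.28), Smarcc1 (0.23) and Med1 (0.19) higher and Kat2b (-0.19) lower. That count was 0 without WT Dex replicate 2.

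In D647V-Tetra most of the 34 genes stood higher with Dex. Of the 34, 23 were higher and 0 lower, against 11.3% of 17535 genes higher and 19.2% called in either direction. The median log2 fold change of the 34 was 0.26, while that of all genes was -0.00, and DESeq2 called 24 higher and 1 lower. The promoters of the 2 genes with the most change, Kmt2d and Polr2a, are shown for the sequence at which a GR site would be looked for. Each line holds the 250 bases before the RefSeq start, from the RefSeq promoter table of GRCm38.p6 (the same build as mm10), 5′ to 3′ on the gene's strand, with the hexamer AGAACA, the core of a GR site, in capitals. In order, they are chr15:98871206-98871455 and chr11:69758634-69758883, both on the minus strand.
Kmt2d: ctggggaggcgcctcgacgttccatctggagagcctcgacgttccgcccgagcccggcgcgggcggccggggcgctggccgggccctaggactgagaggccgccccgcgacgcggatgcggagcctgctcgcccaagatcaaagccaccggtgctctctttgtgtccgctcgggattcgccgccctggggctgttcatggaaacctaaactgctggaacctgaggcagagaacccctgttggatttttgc
Polr2a: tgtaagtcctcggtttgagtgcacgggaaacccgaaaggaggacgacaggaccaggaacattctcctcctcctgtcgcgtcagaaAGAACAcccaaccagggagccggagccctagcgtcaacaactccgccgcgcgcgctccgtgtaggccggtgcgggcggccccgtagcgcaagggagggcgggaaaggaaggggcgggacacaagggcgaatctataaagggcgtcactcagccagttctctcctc
The GC content of these stretches was 67.6% and 62.8%. Of the 34 genes, 28 matched that table by symbol, with a median GC content of 68% against 52.4% over all promoters; for 9 of the 28 the window before the RefSeq start lay wholly inside the gene as GENCODE places it. AGAACA was found on either strand in 4 of the 28 (Chd9, Med14, Ncor1 and Polr2a), and in 16.1% of 32851 promoters of the same table. The full palindrome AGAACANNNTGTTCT was in 0 of the 28 and in 3 of the 32851. Enhancers, where GR binds most often, are outside these windows.

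Kmt2d, a histone H3 lysine 4 methyltransferase of enhancers (chromosome 15, 98831669 to 98871204), showed the most change with Dex in D647V-Tetra. It had 132, 93.2 and 115 CPM with Dex, against 50.6, 77.2 and 54.5 CPM with EtOH. The lowest Dex library was above the highest EtOH library, and the log2 fold change was 0.90 ± 0.170, or 1.87-fold. Polr2a (chromosome 11, 69733997 to 69758637) had 122, 92.2 and 96.1 CPM with Dex, against 62.2, 61.4 and 48.0 CPM with EtOH (0.86 ± 0.126), with a gap between the groups. The other KMT2 genes rose too, Kmt2a by 0.79 ± 0.125 and Kmt2c by 0.55 ± 0.095 on the log2 scale.

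Of the acetyltransferases 2 of 3 rose. Beside the counts by role stand the shares of other coding genes that rose, by transcript length. These were 2.51% up to 2 kb, 7.14% from 2 to 4 kb, 16.5% from 4 to 6 kb, 38.0% from 6 to 8 kb and 58.1% over 8 kb. Crebbp (CBP; chromosome 16, 4081328 to 4213997) had 191, 141 and 173 CPM with Dex, against 84.5, 109 and 92.3 CPM with EtOH (log2 0.82 ± 0.112, or 1.77-fold). Ep300 (p300), its close relative, had 75.8, 61.9 and 71.2 CPM with Dex, against 38.5, 46.5 and 39.2 CPM with EtOH (0.75 ± 0.10). The groups of both genes were separate. Kat2b had 90.4, 92.7 and 86.7 CPM with Dex, against 102, 90.7 and 97.6 CPM with EtOH, which overlap (log2 -0.11, not called).

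All 4 coactivators rose. Ncoa6, which belongs to the KMT2C and KMT2D complexes and binds nuclear receptors, had 57.6, 41.4 and 51.2 CPM with Dex, against 30.4, 33.9 and 28.2 CPM with EtOH (log2 0.70 ± 0.125). The p160 genes moved less: Ncoa1 by 0.36 ± 0.056, Ncoa3 by 0.29 ± 0.054 and Ncoa2 by 0.28 ± 0.061. Both corepressors rose as well, so that calls fell on coactivators and corepressors alike. Nrip1 had 45.4, 41.0 and 45.6 CPM with Dex, against 32.0, 36.4 and 30.2 CPM with EtOH (0.42 ± 0.071), without overlap, and Ncor1 rose by 0.24 ± 0.056, a value that turned to -0.0030 when transcript length was taken out, an alternative chosen after seeing the data.

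All 4 Mediator subunits rose, Med13 by 0.44 ± 0.059, Med12 by 0.41 ± 0.094, Med14, the scaffold of the complex, by 0.32 ± 0.073, and Med1, the subunit that nuclear receptors contact, by 0.24 ± 0.046. Both CHD remodelers rose, Chd9 by 0.63 ± 0.060 and Chd4 by 0.18 ± 0.045. Of the SWI/SNF subunits 4 of 9 rose: Arid1a by 0.59 ± 0.112, Arid1b by 0.32 ± 0.085, Smarcc1 by 0.22 ± 0.047 and Smarca2 by 0.17 ± 0.052, of which Smarca2 turned to -0.0453 when exonic length was taken out. Smarca4 had the same fitted size as Smarca2 without a call (0.18). Of the methyltransferases Ehmt1 also rose, by 0.18 ± 0.048, to make 4 of 6. None of the 3 deacetylases was called. Hdac2 had 108, 113 and 106 CPM with Dex, against 135, 112 and 116 CPM with EtOH (log2 -0.15), which overlap. The other uncalled genes were Carm1 (0.09), Smarcd1 (0.07), Smarcb1 (0.02), Hdac1 and Ehmt2 (both -0.06), Smarcd2 and Hdac3 (both -0.10) and Smarce1 (-0.15).

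**Figure D4:**
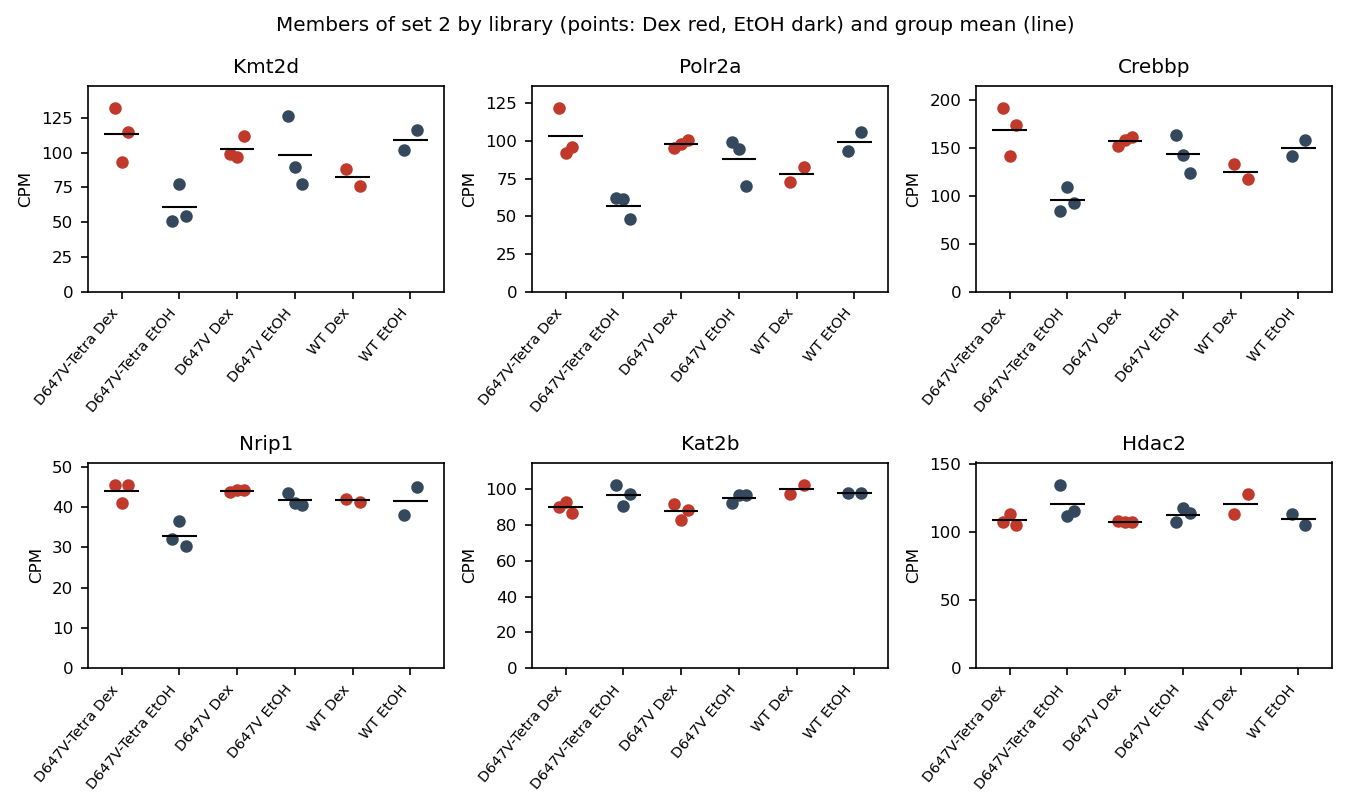
CPM in each library of set 2 (points; Dex red, EtOH dark) and the mean of each group (line) for Kmt2d, Polr2a, Crebbp, Nrip1, Kat2b and Hdac2, from D647V-Tetra on the left to WT on the right. In the first 4 the EtOH libraries of D647V-Tetra are the low group, such as 84.5 to 109 CPM for Crebbp, while for Kat2b and Hdac2 the Dex and EtOH libraries of D647V-Tetra overlap.

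Without hormone, genes of the 34 with long transcripts stood low in D647V-Tetra. Over 8 kb, 9 of 10 were lower than in WT, against 44.6% of other coding genes. Between 2 and 4 kb, the class of the 3 deacetylases, it was 0 of 7, against 7.86%. In EtOH libraries 0 of the 34 were higher and 18 lower in D647V-Tetra than in WT, against 9.34% of all genes lower and 18.7% in either direction, with a median log2 fold change of -0.22 over the 34 and -0.01 over all genes. The genes furthest down were Kmt2d (-0.84 ± 0.186), Polr2a (-0.80 ± 0.138), Kmt2a (-0.79 ± 0.138), Kmt2c (-0.72 ± 0.105) and Ncoa6 (-0.66 ± 0.137). Polr2a, for example, had 62.2, 61.4 and 48.0 CPM in D647V-Tetra, against 93.2 and 106 CPM in WT. This comparison and the Dex response of D647V-Tetra use the same 3 EtOH libraries and are not independent. The count was 9 without WT EtOH replicate 2. The basal markers summed to 4.08 to 5.00 CPM in D647V-Tetra EtOH libraries, against 8.43 to 9.07 in WT EtOH libraries, and the endothelial markers to 2.07 to 2.35, against 6.04 to 6.58; their part in the result was not tested.

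Against D647V, 19 of the 34 were lower in D647V-Tetra EtOH libraries and 0 higher, against 4% of all genes lower and 4.53% in either direction. The genes furthest down were Kmt2a (-0.71 ± 0.125), Kmt2d (-0.69 ± 0.169), Polr2a (-0.63 ± 0.126), Ncoa6 (-0.59 ± 0.125) and Crebbp (-0.59 ± 0.112). Crebbp had 84.5, 109 and 92.3 CPM in D647V-Tetra, against 163, 143 and 124 CPM in D647V, with no overlap. Chd9 had 61.8, 61.8 and 54.8 CPM in D647V-Tetra, against 84.1, 78.2 and 73.4 CPM in D647V. In 16 of the 34 genes all 3 EtOH libraries of D647V-Tetra lay below the other 13 libraries of set 2, which held for 4.13% of all genes tested, and in 0 of the 34 they all lay above them (2.05%). The 16 included Crebbp, Ep300, Polr2a, Kmt2a, Nrip1 and Chd4, but not Kmt2d, where D647V-Tetra EtOH replicate 2 (77.2 CPM) lay above WT Dex replicate 2 (76.4 CPM). The count of 19 was 6 without D647V EtOH replicate 1, 8 without D647V EtOH replicate 2 and 10 without D647V-Tetra EtOH replicate 1 or 3.

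With Dex, no difference between D647V-Tetra and D647V was called: 0 of the 34 genes, against 1.87% of all genes, with an unadjusted p below 0.05 for 2, and DESeq2 called 1 (Chd9). The 95% intervals of the 34 lay within -0.30 and 0.47. Crebbp had 191, 141 and 173 CPM in D647V-Tetra Dex libraries, against 152, 158 and 161 CPM in D647V Dex libraries, and Kmt2d had 132, 93.2 and 115 CPM, against 99.3, 96.6 and 112 CPM; both overlap. Against WT with Dex, 7 of the 34 were higher in D647V-Tetra and 0 lower (12.4% of all genes; 5.55% higher): Crebbp (0.43 ± 0.126), Ep300 (0.38 ± 0.112), Ncoa2 (0.34), Chd9 (0.34), Smarcc1 (0.23), Ncoa3 (0.19) and Med1 (0.16). That count was 1 without WT Dex replicate 2 and 11 without D647V-Tetra Dex replicate 2. Of Crebbp, Ep300, Chd9 and Ncoa3, which were called against WT in the EtOH libraries and in the Dex libraries, all 4 were higher with Dex and lower with EtOH, while over all genes 93.3% of those called in both kinds of library had the same direction.

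The test of the difference between Dex responses asks whether D647V-Tetra responded unlike the other lines. Against WT, the Dex response of D647V-Tetra was higher for 16 of the 34 and lower for 0 (4.41% of all genes in either direction, 3.7% higher). Over 8 kb of transcript length it was higher for 8 of 10, against 34.6% of other coding genes. From 6 to 8 kb it was higher for 6 of 9, against 15.8%. The differences were highest for Kmt2d (1.31 ± 0.267), Polr2a (1.21 ± 0.198), Kmt2a (1.11 ± 0.197), Crebbp (1.08 ± 0.176) and Ep300 (1.02 ± 0.158). Polr2a shows the values behind such a difference: in D647V-Tetra its Dex libraries (92.2 to 122 CPM) were above its EtOH libraries (48.0 to 62.2 CPM), while in WT its Dex libraries (73.1 and 83.0 CPM) were below its EtOH libraries (93.2 and 106 CPM). Against D647V, 3 of the 34 had a higher Dex response (0.873% of all genes, 0.776% higher): Crebbp (0.69 ± 0.157, edgeR's adjusted p 0.0483), Chd9 (0.61 ± 0.084, 0.00131) and Med13 (0.39 ± 0.083, 0.0344). All 3 have transcripts over 8 kb, where 8.23% of other coding genes had a higher response. Med13 had 260.4, 246 and 255 CPM with Dex in D647V-Tetra, against 187, 191 and 182 CPM with EtOH, and 241, 275 and 255 CPM with Dex in D647V, against 261, 252 and 231 CPM with EtOH. The count against WT was 4 without WT EtOH replicate 2 and 6 without WT Dex replicate 2. The count against D647V was between 1 and 9 when single libraries were left out, 10 with DESeq2 and 13 with no filter on low counts.

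The values of D647V-Tetra also went with transcript length. The annotated transcript with the longest coding sequence measured 19.8 kb for Kmt2d, 16.5 kb for Kmt2a, 10.8 kb for Crebbp and 9.57 kb for Ep300, but 2.01 kb for Hdac2 and 1.66 kb for Smarcb1. Over the 34 genes, Spearman's rho between transcript length and the Dex response of D647V-Tetra was 0.86, and over 12434 other coding genes it was 0.44, both across genes of the same libraries and given as a description. For the EtOH baseline of D647V-Tetra against WT rho was -0.85 over the 34 and -0.24 over the others. For the level with Dex of D647V-Tetra against D647V it was 0.10 over the 34 and 0.00 over the others. In WT of set 2 the Dex response had a rho of -0.76 over the 34 and -0.15 over the others.

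Genes of the same length class gave a comparison inside the same libraries. The class over 8 kb has no upper limit. Kmt2d (19.8 kb), Kmt2a (16.5 kb), Kmt2c (15.0 kb), Chd9 (11.6 kb) and Crebbp (10.8 kb) lay well above its lower edge. The medians of other coding genes rose from class to class (0.05, 0.14 and 0.26 from 4 kb up). Ranks within the class over 8 kb therefore do not take out length. Over 8 kb, 10 of the 34 had a median Dex response of 0.61 in D647V-Tetra and all 10 rose, while 583 other coding genes had a median of 0.26 and 58.1% of them rose. Between 2 and 4 kb, 7 of the 34 had a median of -0.10 and 0 were called, while 5011 other coding genes had a median of -0.04. Polr2a, with a transcript of 6.74 kb, responded more than 97.7% of the other coding genes between 6 and 8 kb. Ncoa6 was above 97.0% of that class, and Kmt2d, Crebbp, Kmt2a and Ep300 were above 96.4%, 94.9%, 94.5% and 93.8% of the class over 8 kb. Ncor1 and Med1, each above 47.5% of the class over 8 kb, moved as its median did. Chd4 (57.4%) and Smarca4 (59.2%) were near the middle of the class from 6 to 8 kb.

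**Figure D5:**
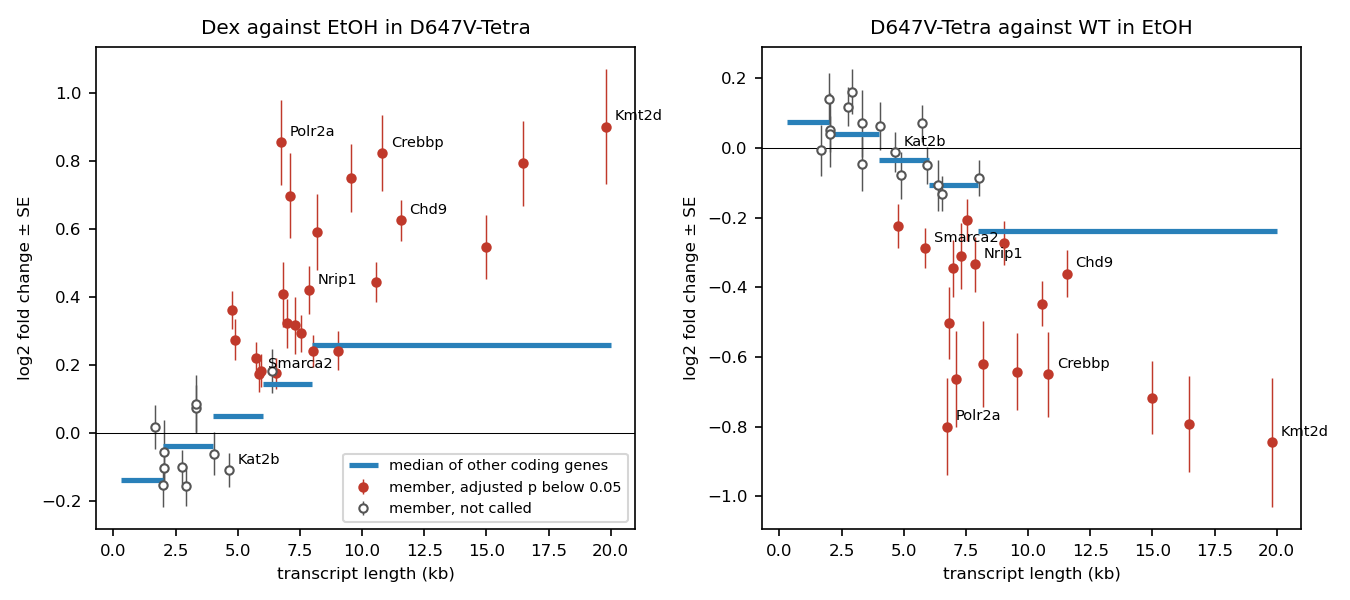
Log2 fold change with Dex in D647V-Tetra (vertical axis, points with SE) of the 34 genes against transcript length in kb (horizontal axis) on the left, and the log2 fold change of D647V-Tetra against WT in EtOH libraries on the right; filled points passed the test and blue bars are the median of the other coding genes in each length class. On the left the medians climb to 0.26 over 8 kb, and Kmt2d, Polr2a and Crebbp stand well above the bar of their class while Hdac2 lies below 0.

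The same gap between long and short transcripts, taken over coding genes other than the 34, was -0.37, -0.19 and -0.35 in the 3 EtOH libraries of D647V-Tetra and 0.10, 0.01 and 0.12 in its Dex libraries. In WT of set 2 it was -0.05 and -0.18 with Dex, against -0.11 and 0.11 with EtOH, and in D647V EtOH libraries it was 0.13, 0.00 and -0.08. The labels do not give RNA integrity, and its part in the result was not tested. When a smooth curve of the log2 values on transcript length was taken out of each library, 13 of the 23 genes were still called higher with Dex in D647V-Tetra: Ncoa1, Ncoa2, Ncoa6, Nrip1, Ep300, Crebbp, Med12, Med13, Arid1a, Kmt2a, Kmt2d, Chd9 and Polr2a. With GC content taken out as well, 15 were called, 14 of them among the 23. The EtOH baseline against WT kept 12 of its 18 calls with the transcript length offset, and that against D647V kept 2 of 19, Ep300 and Med14. The difference of the Dex response against WT kept 8 calls and that against D647V kept Chd9 alone. The share of all genes called with each offset is not given here. These counts are therefore a description and not a result about the 34 as a group.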

How the data were processed

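RNA-seq was measured in 34 libraries of 5 lines. The authors deposited whole-number read counts per gene, 1 table per library; per the file headers these were made with featureCounts 2.0.3 from paired reads with both mates counted, strand option 2 and the GENCODE vM21 annotation of mm10. STAR, cutadapt and bcl2fastq 2.17 are named in the submitters' processing notes, and read length was 100 bp per the labels. The labels describe library batches with different kits but do not assign libraries to them. The 2 sets follow the sample titles, and all 16 headers of set 2 but 0 of set 1 carry the word resent. Lines were compared only within a set, since set and line cannot be told apart across sets.

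Counts were fitted with edgeR 4.0.16 (R 4.3.3, filterByExpr, TMM scaling, quasi-likelihood test). Set 1 had 12 and set 2 had 10 residual degrees of freedom. WT of both sets was fitted with a mean per set and treatment, and its Dex response is the mean of those of the 2 sets. Genes were called at a Benjamini-Hochberg adjusted p below 0.05 over all genes tested. The SE is the fold change over the square root of F, and intervals span 1.96 SE. CPM were computed from the counts over normalized library sizes. The fits were tested on simulated data. DESeq2 1.42.0, its size factors, no filter on low counts, only the groups compared, a replicate block, length offsets and each library left out were tried. Of 17 same-numbered pairs of Dex and EtOH libraries 0 correlated above 0.1, so no pairing was used in the main fit. With so few libraries per group, these correlations cannot exclude pairing. The lowest chi-square per degree of freedom between replicates was 2.86, so no 2 libraries agreed within sampling noise. Named are all genes called in a Dex response or a difference of responses, the 5 highest and 5 lowest called genes of each EtOH baseline, a set list in WT and, of the wider lists, the 3 highest and 3 lowest, of which some are not reported here. The 34 genes and the lists were chosen with earlier results of these data known, and the comparisons between Dex libraries, the transcript length and GC offsets and the crossed block were added after seeing the data. Promoter sequences are from the RefSeq table of GRCm38.p6; the 6 genes with no match are Ncoa2, Ncoa3, Smarce1, Carm1, Hdac1 and Hdac3.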

Additional observations from a re-analysis of the deposited data

Results flagged for a closer look

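The Dex response of D647V-Tetra differed from that of WT of set 2 by the test of the difference itself for 16 of the 34 genes, all with a higher response in D647V-Tetra. Over all genes 3.7% had a higher response and 4.41% differed in either direction. Over 8 kb of transcript length it was 8 of 10, against 34.6% of other coding genes. From 6 to 8 kb it was 6 of 9, against 15.8%. As log2 differences, Kmt2d had 1.31, Polr2a 1.21, Kmt2a 1.11, Crebbp 1.08, Ep300 1.02, Ncoa6 1.00, Arid1a 0.96, Kmt2c 0.87, Chd9 0.70, Med13 0.57, Med12 0.56, Med14 0.47, Ncoa2 0.42, Nrip1 0.41, Ncoa3 0.40 and Ncoa1 0.39. The SEs ran from 0.085 for Ncoa3 to 0.267 for Kmt2d. Against D647V the same test called Crebbp (0.69), Chd9 (0.61) and Med13 (0.39), where 0.776% of all genes had a higher response. All 3 have transcripts over 8 kb, where 8.23% of other coding genes had a higher response. Both tests use the same D647V-Tetra libraries. No group of these libraries held more than 3 samples, so no single library could be tested as an extreme value within its group.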

How the results depend on the processing

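Counts of the 34 genes called moved by more than 1.5 times as follows. Dex in WT of set 1 (0) gave 1 with DESeq2, the length offset, the length offset with the replicate block or the transcript length offset, 2 with the transcript length and GC offset and 3 with only the groups compared; Dex in WT of set 2 (0) gave 8 with no filter on low counts. Dex in WT of both sets (4) gave 8 with no filter and 7 with DESeq2. The baseline of Y551A-Dim (14 against WT) gave 9 with the length offset, and that against Y551A (7) gave 11 with only the groups compared. The baseline of D647V (0) gave 1 with DESeq2 and 2 with the transcript length and GC offset. Dex in D647V-Tetra (23) gave 15 with the length offset and block, 13 with transcript length and 15 with transcript length and GC. Its baseline against WT (18) gave 11 with the length offset and block. Its baseline against D647V (19) gave 10 with the length offset, 5 with the block added, 2 with transcript length, 4 with GC added and 9 with only the groups compared. The difference of the Dex response against WT gave 8 for D647V (0) with no filter and, for D647V-Tetra (16), 10 with the length offset, 8 with the block added and 8 with transcript length. That of D647V-Tetra against D647V (3) gave 13 with no filter, 10 with DESeq2, 1 with the length, transcript length or transcript length and GC offset, and 0 with the length offset and block. Between Dex libraries, D647V against WT (6) gave 13 with no filter, 11 with DESeq2, 1 with the length offset and block, 2 with transcript length and 16 with only the groups compared. D647V-Tetra against WT (7) gave 11 with no filter, 3 with the length offset and block and 4 with transcript length. D647V-Tetra against D647V (0) gave 1 with no filter, DESeq2, the length, transcript length or transcript length and GC offset, or only the groups compared. The offsets remove a trend by construction. For the other settings the cause was not tested. The share of all genes called under each setting is not given beside these counts, so they describe only how the calls moved.

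Libraries with the same replicate number had correlations of -0.20 to 0.08, which cannot settle whether the numbers pair them. A replicate block changed the count of Dex in WT of both sets to 1, of the difference of D647V-Tetra against D647V to 1, and between Dex libraries of D647V against WT to 2 and of D647V-Tetra against WT to 4; it moved no other count by more than 1.5 times (22 for Dex in D647V-Tetra). Crossing the numbers of WT in set 2 gave 8 for WT of both sets, 1 for the difference of D647V-Tetra against D647V and 3 for D647V against WT between Dex libraries.

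With single libraries left out, counts ranged from 0 to 1 for Dex in WT of set 1, 2 to 10 for WT of both sets and 19 to 27 for D647V-Tetra, and stayed at 0 for Dex in Y551A, Y551A-Dim, WT of set 2 and D647V. Baselines ranged from 14 to 22 for Y551A, 7 to 15 for Y551A-Dim, 4 to 10 for Y551A-Dim against Y551A, 9 to 20 for D647V-Tetra against WT and 6 to 22 against D647V, and stayed at 0 for D647V. Differences of the Dex response ranged from 4 to 22 for D647V-Tetra against WT and 1 to 9 against D647V (9 without D647V EtOH replicate 3, 8 without D647V-Tetra EtOH replicate 2, 6 without its Dex replicate 2). Between Dex libraries the ranges were 16 to 24 for Y551A, 9 to 14 for Y551A-Dim, 5 to 14 for Y551A-Dim against Y551A, 0 to 9 for D647V and 1 to 11 for D647V-Tetra against WT, and 0 for D647V-Tetra against D647V. Where an arm kept 1 library, it was assumed to vary as the other groups do.

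Of the values of single genes that were followed under other settings, 3423 stayed the same, 397 became weaker, 23 became stronger and 3 turned. This tally does not hold every call gained, as the counts above show. In the Dex response of D647V-Tetra, Ncor1 went to -0.0030 with the transcript length offset, and Smarca2 to -0.0453 with the length offset and -0.0452 with the block added. Nrip1 in WT of set 1 had adjusted p-values between 0.0045 and 0.170 over the settings and with single libraries left out. The lowest count of the 34 genes was 1083 reads. WT of set 2 had 2 libraries per treatment, which limits every value set against it.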

Other observations

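Outside the 34 genes, 172 further coregulator and chromatin genes in 11 lists were followed, of which 170 could be tested. Chd7, a remodeler of the CHD family that acts at enhancers, rose with Dex in WT of both sets and in Y551A, D647V and D647V-Tetra. In set 1 it had 37.7, 42.8 and 36.2 CPM with Dex in WT, against 30.0, 31.4 and 31.1 CPM with EtOH (log2 0.34 ± 0.054), and 39.4, 39.1 and 36.8 CPM with Dex in Y551A, against 30.5, 30.4 and 31.5 CPM with EtOH (0.32 ± 0.054). In Y551A-Dim it had 29.0, 31.0 and 29.9 CPM with Dex, against 30.5, 31.4 and 29.6 CPM with EtOH, which overlap (-0.03). The test of the difference called Chd7 between Y551A-Dim and WT (-0.36 ± 0.077) and between Y551A-Dim and Y551A (-0.34 ± 0.077). In set 2 Chd7 had 62.4 and 59.0 CPM with Dex in WT, against 45.1 and 46.4 CPM with EtOH (0.41 ± 0.083), and 51.3, 49.97 and 55.1 CPM with Dex in D647V, against 41.3, 40.7 and 37.0 CPM with EtOH (0.39 ± 0.068). In D647V-Tetra it had 47.9, 48.8 and 51.3 CPM with Dex, against 31.6, 38.3 and 32.1 CPM with EtOH (0.54). In this line coding genes outside the 34 with transcripts over 8 kb had a median of 0.26. Chd7 was not set against genes of its transcript length.

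Of the 170 genes, 1 rose and 3 fell with Dex in WT of set 1, where 3.4% of all genes were called: Ppargc1a, a coactivator of oxidative metabolism (-0.38 ± 0.087), Cited2, which binds p300 and CBP (-0.31 ± 0.050), and the demethylase Kdm3a (-0.16 ± 0.045). Chd7 was the single call in Y551A, WT of set 2 and D647V, and 0 were called in Y551A-Dim. In WT of both sets 2 rose and 6 fell (5.1% of all genes), among them Ppargc1b (-0.63), Cited2 (-0.37) and Kmt2e (-0.23). In D647V-Tetra 41 rose and 12 fell (31.2% of the 170, against 19.2% of all genes, 11.3% higher), with the methyltransferases Setd1b (0.71) and Dot1l (0.68) among the highest and Cited2 (-0.35), Sap30 (-0.32) and Med6 (-0.23) at the low end. In this line 58.1% of other coding genes with transcripts over 8 kb rose, and 38.0% of those from 6 to 8 kb. Up to 2 kb, 2.51% rose and 21.6% fell. The difference of the Dex response was called for 16 higher and 1 lower against WT (4.41% of all genes), with Gatad2b (0.90) among the highest and Med22 (-0.30) lower, and for Ash1l (0.44) and Setd2 (0.31) against D647V. Over 8 kb, 34.6% of other coding genes had a higher response against WT and 8.23% against D647V. The 170 were not set against genes of their transcript length. Their counts in D647V-Tetra are therefore not a result about them as a group.

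In EtOH libraries 27 of the 170 were higher and 71 lower in Y551A than in WT, against 18.9% and 23.5% of all genes. Kdm5b (0.98), Kdm7a (0.94) and Calcoco1 (0.75) were highest and Ppargc1a (-0.71), Hat1 (-0.67) and Suv39h2 (-0.57) lowest. In Y551A-Dim 14 were higher than in WT (among them Ccnt2 0.39 and Kmt2e 0.33) and 36 lower (Ppargc1a -0.41, Hdac5 -0.35, Cited2 -0.30), against 10% and 13.3% of all genes. Against Y551A it had 42 higher (Hat1 0.55, Suv39h2 0.43, Ezh2 0.43) and 19 lower (Calcoco1 -0.82, Kdm5b -0.68, Tgfb1i1 -0.66), against 14.8% and 14.2%. D647V had 8 higher than WT (Hat1 0.28, Rbbp5 0.28, Suv39h1 0.26) and 2 lower (Tgfb1i1 -0.42, Calcoco1 -0.38), where 7.36% of all genes were called. D647V-Tetra had 24 higher than WT (Hat1 0.43, Sap30 0.40, Mbd3 0.38) and 26 lower (among them Tgfb1i1 -0.80 and Kdm6b -0.75), where 18.7% of all genes were called. Against D647V it had 0 higher and 14 lower (Gatad2b -0.54, Ep400 -0.47, Ash1l -0.46), where 4% of all genes were lower. Over 8 kb of transcript length, 44.6% of other coding genes were lower in D647V-Tetra than in WT and 42.9% lower than in D647V. Up to 2 kb, 15.4% were higher in D647V-Tetra than in WT. Here too the 170 were not set against genes of their transcript length.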
